A study of Mus musculus with 4 samples.

Results

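The genes described here encode receptors of the common gamma chain cytokines (Il7r, Il2ra, Il2rb, Il2rg, Il15ra, Il4ra and Il21r) and of the IL-6 family (Il6ra and Il6st). They were chosen by name, as the probe sets that the platform annotation maps to exactly 1 of these genes, and the main probe set of a gene is the one whose mean over the 4 arrays was highest. Of the 9 genes, 8 were measured, by 17 of the 22626 probe sets tested, and the array covered 12393 named genes in all. Il2rg, which encodes the shared gamma chain itself, was not analysed here.

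Expression was measured in CD8 T cells sorted from spleens of female C57BL/6 mice aged 8 to 12 weeks. The first group had received the dioxin TCDD, which binds and activates the aryl hydrocarbon receptor (AHR), at 10 µg/kg by intraperitoneal injection, and the second had received the solvent DMSO the same way. Cells were taken at 24 h, with spleen cells of 4 mice pooled for a group and a stated sort purity above 99%. Each group has 2 arrays, numbered 1 and 2 in their titles. Nothing says whether these came from separate pools, so p-values measure the spread between arrays, which may be technical. Precision is limited by having 2 arrays per group. The smallest two-sided p that permuting 2 arrays against 2 allows is 0.3333, so tests are moderated limma tests fitted over all probe sets.

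Receptors of the common gamma chain family pair a ligand-specific chain with the gamma chain and signal through JAK1 and JAK3 to STAT factors. In CD8 T cells IL-7 keeps naive cells alive, and IL-15 maintains memory cells. IL-2 drives expansion after activation, when the alpha chain of its receptor is induced. IL-6 binds its own alpha chain and then recruits gp130, which signals mainly through STAT3 and is shared with other members of that family.

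No receptor gene passed the test for a difference between TCDD and DMSO. The limma count was 0 of 8 at an adjusted p under 0.05, and 0 at an unadjusted p under 0.05. Over the whole array the adjusted count was 0 of 22626 probe sets, or 0.0% (lowest adjusted p = 0.9973), and 439 probe sets, or 1.94%, had an unadjusted p under 0.05. Differences ran from −0.225 for Il6ra to 0.27 for Il2ra on the log2 scale, 5 above 0 and 3 below. The median difference was 0.05, against 0.01 over all named genes. The median absolute difference was 0.16, against 0.09 over all named genes and 0.11 over those with a mean above 6.01, the median level of the probe sets. By the main probe sets, the 95% limits excluded a change in RMA signal of 1.5-fold in either direction for 6 of the 8 genes. Il6ra and Il6st had wider limits. Among the 6, other probe sets had limits reaching a 2.83-fold fall for Il7r and a 1.54-fold rise for Il4ra. Il2ra, also among them, had a mean below the median level. In a fit with the title number as a second term, limits of −0.06 and 0.60 no longer excluded 1.5-fold for Il2ra. Limits of −0.55 and 0.19 did exclude it for Il6st in that fit. In sorted bulk samples like these, fewer cells of a type and less RNA per cell cannot be told apart.

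**Figure D1:**
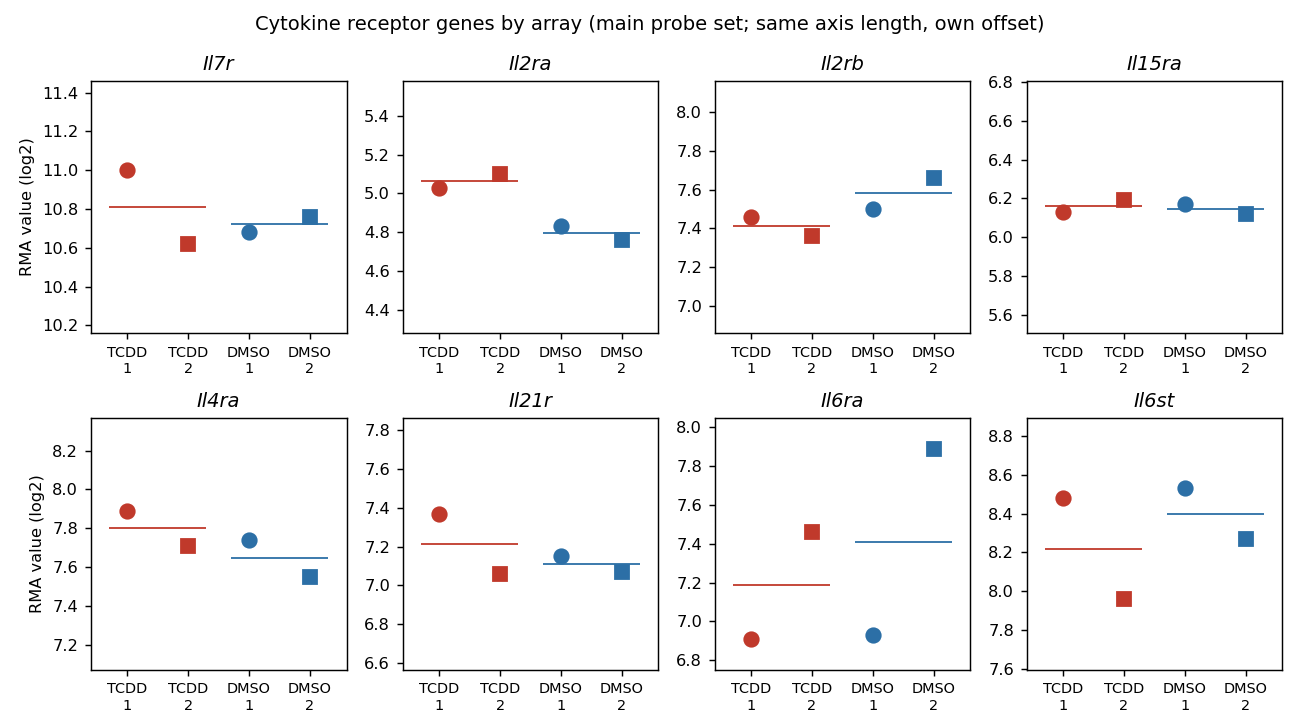
RMA values (log2) of the main probe set of 8 receptor genes on each array, with TCDD in red and DMSO in blue; circles are arrays numbered 1, squares are arrays numbered 2, and lines are group means. All panels span the same number of log2 units from their own offset, so spreads can be compared between panels but levels cannot. Both TCDD arrays lie above both DMSO arrays for Il2ra and below them for Il2rb, and the arrays numbered 2 lie above those numbered 1 for Il6ra.

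Il7r, the alpha chain of the IL-7 receptor and a marker of naive and memory T cells, had 11.00 and 10.62 in the TCDD arrays numbered 1 and 2, against 10.68 and 10.76 in the DMSO arrays with those numbers. The TCDD arrays lay on either side of the DMSO arrays. The means were 10.81 ± 0.269 with TCDD and 10.72 ± 0.057 with DMSO (SD, n = 2 each). The difference was 0.09, and its 95% limits were −0.33 and 0.51, so a rise above 1.42-fold and a fall beyond 1.26-fold lay outside the interval. Within the title numbers the sign was not shared, at 0.32 for number 1 and −0.14 for number 2. A second probe set, 1448576_at, gave 6.39 and 6.62 with TCDD, against 6.39 and 7.55 with DMSO. There DMSO replicate 2 stood above the other arrays, and the difference of −0.465 had limits of −1.50 and 0.57. The probe sets of this gene therefore differed in sign, and neither passed the test.

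Il2ra, which encodes CD25, the chain that gives the IL-2 receptor its high affinity, measured 5.03 and 5.10 in the TCDD arrays, against 4.83 and 4.76 in the DMSO arrays. It was the single receptor gene with both TCDD arrays above both DMSO arrays, an order found for 3059 probe sets, or 13.5%. The difference was 0.27 (SE 0.10, 95% limits −0.003 and 0.54), with 0.20 and 0.34 within numbers 1 and 2. Its unadjusted limma p was 0.0515 and its adjusted p 0.9973. The other Il2ra probe set, 1420691_at, ran the opposite way, at 4.15 on both TCDD arrays, against 4.32 and 4.24 on the DMSO arrays. Its difference was −0.13, and there the TCDD arrays were the lower ones. Both probe sets had means below the median level of 6.01, where an RMA value does not separate weak expression from none. Regulatory T cells carry CD25 constitutively, and their markers Foxp3 and Ikzf2 also had means below that level. Foxp3 had 4.50 and 4.42 with TCDD, against 4.73 and 4.58 with DMSO, and Ikzf2 had 4.67 and 4.75, against 4.65 and 4.82. The part of such cells in the Il2ra values was not tested.

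Il2rb encodes CD122, the signalling chain shared by IL-2 and IL-15 and high on memory CD8 T cells. It had 7.46 and 7.36 in the TCDD arrays, against 7.50 and 7.66 in the DMSO arrays. Both TCDD arrays were lower, an order found for 12.0% of probe sets, and Il2rb was the one receptor gene with it. The difference was −0.17 with limits of −0.47 and 0.13, and it lay mostly in the arrays numbered 2 (−0.04 within number 1 and −0.30 within number 2). The second probe set, 1417546_at, differed by −0.035 with overlapping groups. In all, 2 of 8 receptor genes had separate groups in either direction, where 25.5% of all probe sets did.

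Il15ra, the chain that binds IL-15 and presents it to neighbouring cells, was nearly level across the arrays. It had 6.13 and 6.19 with TCDD, against 6.17 and 6.12 with DMSO. The difference of 0.015 had limits of −0.25 and 0.28, so a rise above 1.22-fold and a fall beyond 1.19-fold lay outside the interval. Its mean of 6.15 was little above the median level, where RMA may compress a change in transcript. The other probe set, 1422397_a_at, was at 6.12 in TCDD replicate 2 and between 5.72 and 5.79 elsewhere, which is a difference of 0.145.

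Il4ra, the alpha chain for IL-4 that also serves in the IL-13 receptor, had 7.89 and 7.71 in TCDD arrays, against 7.74 and 7.55 in DMSO arrays. The difference was 0.155 (limits −0.19 and 0.50), nearly equal within numbers 1 and 2 at 0.15 and 0.16, but the groups overlapped because the arrays numbered 2 were lower in both treatments. This probe set, 1447858_x_at, is of a type marked for possible cross hybridisation. The other Il4ra probe sets differed by 0.025 for 1421034_a_at and −0.075 for 1423996_a_at, so the small difference of the main probe set was not shared.

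Il21r, the receptor chain for IL-21, a cytokine of helper T cells that sustains CD8 responses, had 7.37 and 7.06 with TCDD, against 7.15 and 7.07 with DMSO. TCDD replicate 1 was high and the other arrays lay within 0.09 of each other. The difference was 0.105 with limits of −0.27 and 0.48, and it has 1 probe set.

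For the IL-6 receptor genes the differences between array numbers, given after the treatment comparison, were larger in size than those between treatments. Il6ra, the IL-6 binding chain, had 6.91 and 7.46 in the TCDD arrays numbered 1 and 2, against 6.93 and 7.89 in the DMSO arrays with those numbers. The treatment difference was −0.225 with limits of −1.20 and 0.75, made of −0.02 within number 1 and −0.43 within number 2. Without DMSO replicate 2, the highest array, it was 0.255. The other probe set, 1422270_a_at, did not show this spread, at 6.45 and 6.50 with TCDD, against 6.57 and 6.50 with DMSO. Il6st, which encodes gp130, had 8.48 and 7.96 with TCDD, against 8.53 and 8.27 with DMSO. Its treatment difference was −0.18 with limits of −0.74 and 0.38, with −0.05 and −0.31 within the numbers. The other Il6st probe sets had means of 5.28 and 4.70, below the median level, and differed by 0.09 for 1460295_s_at and 0.05 for 1421239_at.

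**Figure D2:**
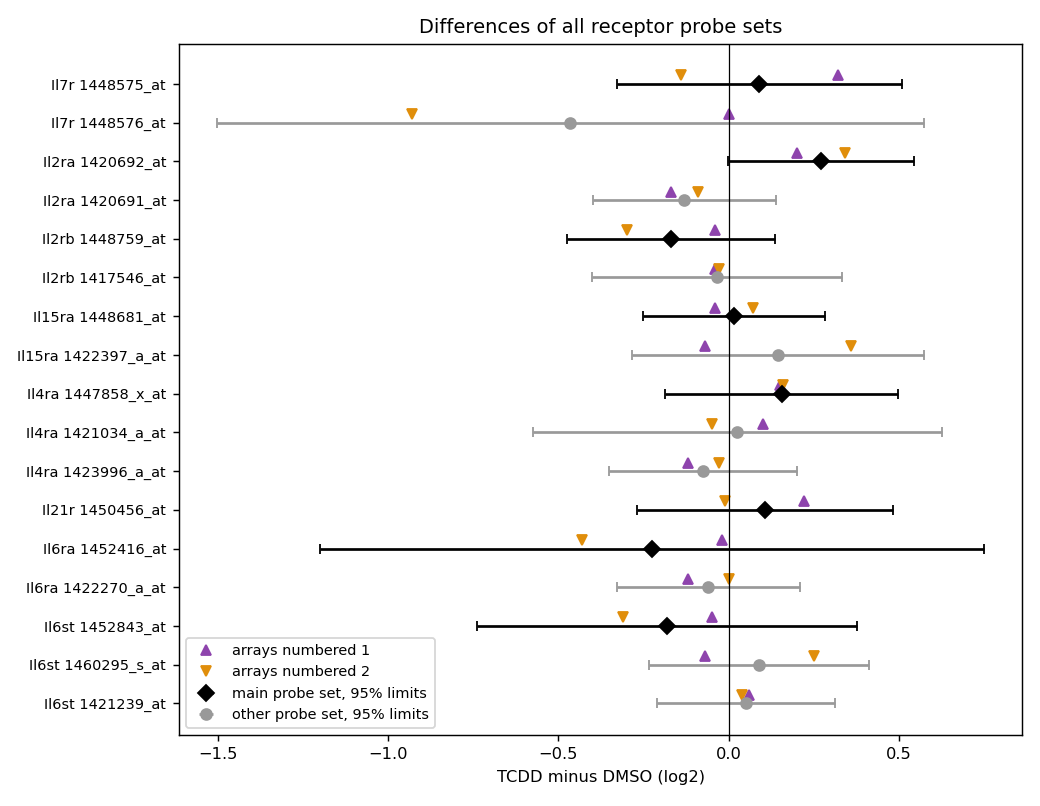
TCDD minus DMSO differences (log2) of all 17 receptor probe sets, with 95% limits from the moderated fit as bars; black diamonds are main probe sets, grey circles the others, and triangles the differences between the arrays sharing a number. Every interval includes 0. The main probe set of Il2ra, with a lower limit of −0.003, comes nearest to leaving it out, and 4 genes (Il7r, Il2ra, Il4ra and Il6st) have probe sets of opposite sign.

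The comparison of arrays numbered 2 with arrays numbered 1 was fitted with treatment as a second term, since the number is the one other label that differs between arrays. It called 0 of 8 receptor genes and 0 of 22626 probe sets after adjustment, or 0.0% (limma, lowest adjusted p = 0.4779). Il6ra and Il6st, 2 of the 8, had an unadjusted p under 0.05, which 1361 probe sets, or 6.02%, also had. Il6ra was higher in the arrays numbered 2, by 0.55 with TCDD and by 0.96 with DMSO. The fitted difference was 0.755 with limits of 0.30 and 1.21 (unadjusted p = 0.0123, adjusted p = 0.624). Il6st went the other way, with −0.52 in TCDD samples and −0.26 in DMSO samples, and a fitted −0.39 with limits of −0.76 and −0.02 (unadjusted p = 0.0447, adjusted p = 0.8266). The chains of the IL-6 receptor thus took opposite directions with the number by their main probe sets, and neither passed the adjustment. The other probe sets showed little of this, with number differences of −0.01 for Il6ra and of 0.00 and 0.03 for Il6st. For 5 of the 8 genes (62.5%) the number difference was larger in size than the treatment difference, as it was for 54.0% of all named genes. The arrays numbered 2 lay wholly to one side of those numbered 1 for 4 receptor genes, Il4ra, Il21r, Il6ra and Il6st, where 36.6% of all probe sets did so.

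**Figure D3:**
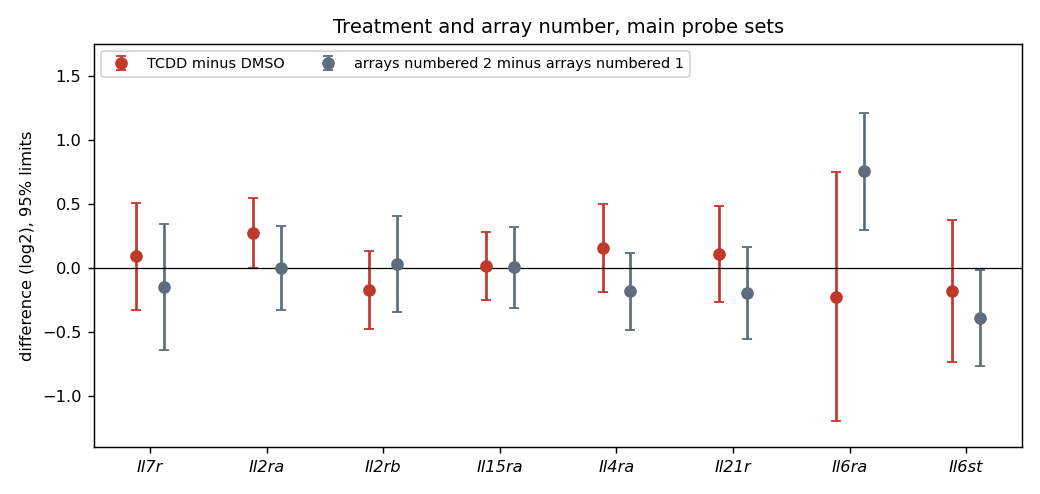
Differences of the main probe sets (log2) between treatments in red and between array numbers in grey, with 95% limits; the number differences come from a fit with treatment as a second term. Il6ra has the largest number difference of the 8 genes, at 0.755, and Il6st the largest negative one, at −0.39.

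Neutrophil genes moved with the array that was highest for the main probe set of Il6ra, a gene that granulocytes and monocytes also express. The other Il6ra probe set, 1422270_a_at, was highest in DMSO replicate 1 instead, at 6.57. All 6 measured neutrophil markers were highest in DMSO replicate 2. The share of all probe sets highest in that array was not computed. In the other lists the count ran from 0 of 8 Janus kinases and STAT factors to 6 of 12 regulators of receptor transcription or shedding. The neutrophil markers had mean levels of 5.73 and 6.01 in the TCDD arrays, against 5.66 and 7.005 in the DMSO arrays. S100a8, a subunit of calprotectin, had 8.67 in DMSO replicate 2 and between 5.45 and 5.94 elsewhere. S100a9 had 7.80 there and between 4.61 and 5.63 elsewhere. The rest of the neutrophil list had ranges over the arrays of only 0.33 to 0.68. Of the 7 monocyte, macrophage and dendritic cell markers, 0 were highest in DMSO replicate 2. Their means were 6.62 and 6.76 with TCDD, against 6.41 and 6.60 with DMSO. Their median treatment difference was 0.13. Lyz2 and Itgax, 2 of the 7, had both TCDD arrays higher, as 13.5% of all probe sets did, and 0 had both lower. They differed by 0.555 and 0.13. Csf1r, the receptor for a macrophage growth factor, followed the number, at 7.92 and 8.72 with TCDD, against 7.35 and 8.65 with DMSO. Between the TCDD arrays alone, Il6ra was 0.55 higher in replicate 2 and S100a8 was 0.39 higher. The part of these cells in the Il6ra values was not tested.

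The genes with profiles nearest to that of Il6ra over the 4 arrays were Klrg1, Zfp329 and Bcl2l11. Likeness was the root mean square distance between profiles centred on each gene's own mean, among 7388 other genes above the median level, and these distances were 0.040, 0.047 and 0.070. Klrg1, a lectin-like receptor of differentiated CD8 T cells, had 8.04 and 8.60 with TCDD, against 7.98 and 8.95 with DMSO. Bcl2l11, which encodes the death factor BIM, had 8.91 and 9.29, against 8.89 and 9.75. With 4 arrays many profiles lie close by, so this is a description only.

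In the labelled cell type, 7 of the 8 listed CD8 T cell genes were measured, all above the median level. Their mean was 8.97 and 9.36 in the TCDD arrays, against 9.44 and 9.53 in the DMSO arrays, and 3 of them (Cd8a, Cd3g and Thy1) had both TCDD arrays lower, as 12.0% of all probe sets did. Cd8a, a CD8 coreceptor chain, differed by −0.73 (8.17 and 8.74 with TCDD, against 8.91 and 9.46 with DMSO). Its other probe set, 1451673_at, was at −0.50 with overlapping groups. The partner chain Cd8b1 differed by −0.07, with −0.51 within number 1 and 0.37 within number 2. Cd3e, Cd3d and Cd5, with overlapping groups too, were at −0.265, −0.055 and 0.02. None of the 7 passed the adjusted limma test, and 2 of them had an unadjusted p under 0.05, where 1.94% of all probe sets did. The CD4 and regulatory T cell list had a median difference of −0.025, and its most variable member, Ctla4, an inhibitory receptor that activated CD8 T cells also carry, had 9.28 and 6.07, against 8.70 and 6.46. NK cell markers had a median difference of −0.028, and Klra8 there ran from 3.94 to 4.61. The B cell list had a median of 0.30 and no member with separate groups. The B lineage genes Cd79a, Ms4a1 and Pax5, all with means below the median level, were at 0.01, −0.065 and −0.095. Cd79b, a B lineage gene above that level, was at 0.30. It had 6.22 and 7.09 with TCDD, against 6.30 and 6.41 with DMSO. The widest range was that of Cd74, the class II invariant chain, which other antigen-presenting cells share. Cd74 had 9.04 and 8.06 with TCDD, against 8.98 and 6.98 with DMSO, and was lowest in DMSO replicate 2. The class II genes H2-Aa and H2-Eb1 were also lowest there, and had the largest differences of the list, 0.635 and 0.685. Both were higher with TCDD within each number, by 0.36 and 0.91 for H2-Aa and by 0.23 and 1.14 for H2-Eb1. Their groups overlapped. The 5 AHR targets had a median difference of −0.045, and 0 passed limma, at an unadjusted p under 0.05 too. The groups did not overlap for 1, Cyp1b1, at −0.155 and below the median level, and its other probe sets were at 0.08 and −0.085. Cyp1a1 differed by −0.05. Tiparp differed by 0.775 with limits of −1.28 and 2.83, and was higher with TCDD within both numbers, by 1.15 and 0.40. Its other probe sets were at 0.075 and 0.17.

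Genes that sit around the receptors were taken from lists, and 0 members of any list passed the adjusted limma test. At an unadjusted p under 0.05 there was 1 among the 12 measured regulators of the receptors and 2 among the 5 measured naive genes. The other lists of this kind had 0, and 1.94% of all probe sets had such a p. Higher and lower here mean that the groups did not overlap, as for 13.5% and 12.0% of all probe sets. Among the 8 of 10 measured other receptors of both families the median difference was 0.00, with 0 higher, 1 lower and 7 overlapping. The one lower was Crlf2, the receptor chain for TSLP, which pairs with Il7r. Crlf2 had 8.56 and 8.69 with TCDD, against 8.75 and 8.92 with DMSO, which is a difference of −0.21 with limits of −0.53 and 0.11. Lifr, the LIF receptor and a gp130 partner, differed by 0.025. Of the 13 of 16 measured ligands, 9 had means below the median level. Their median difference was 0.055, and 3 (Il21, Il6 and Lif, all below that level) were higher and 0 lower with separate groups. The ligand genes above that level with the largest differences by their main probe sets were Clcf1, a gp130 ligand, and Il9, both at 0.08. The other Clcf1 probe sets differed by −0.30 for 1437270_a_at, above that level, and by 0.01 for 1450262_at, below it.

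Among the 8 of 9 measured Janus kinases and STAT factors the median difference was 0.02, with 0 higher, 1 lower and 7 overlapping. Stat5a and Stat5b, the factors through which IL-2, IL-7 and IL-15 act, measured in opposite directions. Stat5a had 7.58 and 6.87 with TCDD, against 7.26 and 6.51 with DMSO, which is a difference of 0.34 with limits of −0.57 and 1.25. Stat5b had 7.60 and 7.53, against 7.92 and 7.63, which is a difference of −0.21, while its other probe set, 1422102_a_at, was at 0.125 with overlapping groups. Stat5a was higher within both numbers, by 0.32 and 0.36, and its groups overlapped because the arrays numbered 2 were lower.

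The 14 targets and feedback genes, all measured, had a median difference of 0.05, with 2 higher (Socs2 and Ptpn2), 4 lower (Pim2, Bcl2, Myc and Pias1) and 8 overlapping. Ptpn2 was at 0.27 by its main probe set, but another above the median level, 1417140_a_at, was at −0.555 with overlapping groups. Of these 6 genes Myc, a growth regulator downstream of IL-2, had the largest difference, −0.52, with −0.86 and −0.18 within the numbers. Pim1, a survival kinase induced through STAT5 and STAT3, had 10.65 and 9.71 with TCDD, against 10.09 and 8.94 with DMSO. Its difference was 0.665 with limits of −0.62 and 1.95. Socs3, the feedback inhibitor that binds gp130, had 11.24 and 10.34, against 10.45 and 9.90, which is a difference of 0.615 with limits of −0.32 and 1.55. Both genes were higher with TCDD within each number, by 0.56 and 0.77 for Pim1 and by 0.79 and 0.44 for Socs3. Both were also lower in the arrays numbered 2, so their groups overlapped. The other Socs3 probe sets differed by 0.42 and 0.29, and the other Pim1 probe set, below the median level, by 0.105.

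Among the 12 of 13 measured regulators of receptor transcription or shedding the median difference was −0.135, with 1 higher, 2 lower and 9 overlapping. Of the 12, 6 were highest in DMSO replicate 2, an order whose share over all probe sets was not computed. The 2 lower genes encode T-box factors, Tbx21 and Eomes, and 12.0% of all probe sets had this order. As background, T-box factors drive Il2rb transcription in mouse cells; any link to the Il2rb values was not tested. Tbx21, which encodes T-bet, had 6.94 and 7.01 with TCDD, against 7.22 and 8.21 with DMSO, which is a difference of −0.74 (limits −1.62 and 0.14). Eomes had 8.49 and 8.16, against 8.60 and 8.57, which is a difference of −0.26 (limits −0.64 and 0.12). Its other probe set, 1426001_at, was at −0.20 with overlapping groups. Foxo1, an activator of Il7r transcription, differed by −0.535, at 9.78 and 9.25 with TCDD, against 9.66 and 10.44 with DMSO. Its other probe sets were at 0.165, 0.06 and 0.055, so no direction can be given for this gene. The 1 higher gene, Foxp1, encodes an antagonist of FOXO1 at Il7r. It had 11.09 and 11.04 with TCDD, against 10.47 and 10.74 with DMSO, which is a difference of 0.46 (limits 0.11 and 0.81). In limma its unadjusted p was 0.0199 and its adjusted p 0.9973. Its 6 other probe sets had overlapping groups and ran from −0.315 to 0.61.

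**Figure D4:**
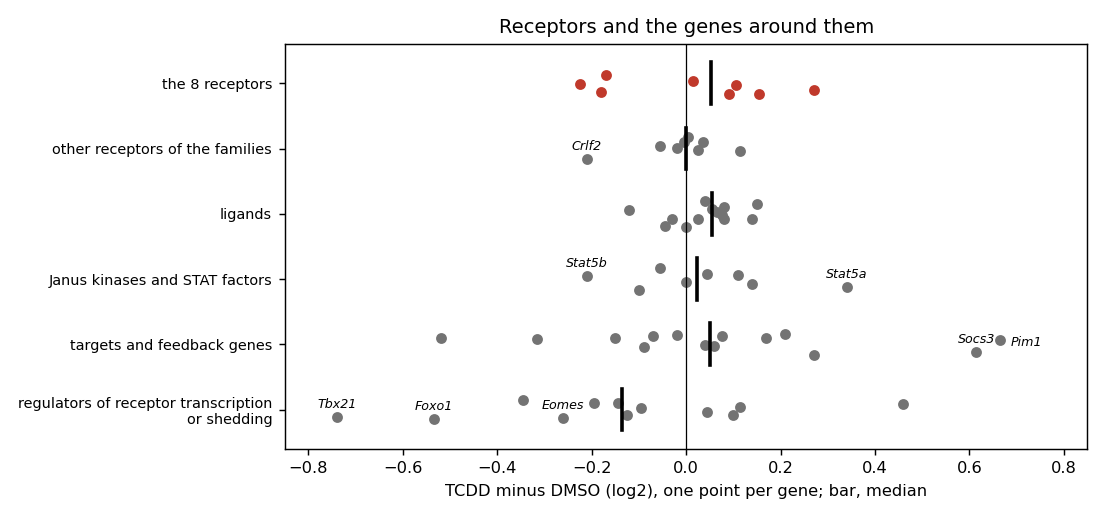
TCDD minus DMSO differences (log2) of the 8 receptor genes and of 5 lists around them, with 1 point per gene and a bar at each list's median; names mark genes described in the text. The receptor points lie between −0.225 and 0.27, and Pim1 and Socs3 lie farthest to the right at 0.665 and 0.615.

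Il7r, Il2rb and Il2ra help to tell naive, memory and activated T cells apart, and other genes of these states were measured too. The 9 of 10 measured memory and effector genes had a median difference of −0.07, with 0 higher and 2 lower, Tbx21 and Eomes. The 5 of 8 measured naive genes had a median of −0.315, with 0 higher and 2 lower, Klf2 and Igfbp4. The other 3 had overlapping groups, with Lef1 at −0.315, Satb1 at −0.10 and Ccr7 at 0.39. Ccr7 was higher with TCDD within both numbers, by 0.23 and 0.55. Klf2, a quiescence factor, differed by −1.17 with limits of −2.07 and −0.27 (unadjusted p = 0.0207, adjusted p = 0.9973 in limma). Igfbp4, a gene of naive T cells in the mouse, differed by −0.475 by its main probe set, at 10.19 and 10.03 with TCDD, against 10.50 and 10.67 with DMSO. Of its other probe sets, 1437406_x_at, 1423756_s_at, 1423757_x_at and 1421992_a_at were also lower in both TCDD arrays, at −0.165, −0.705, −0.275 and −0.215, and 1421991_a_at went the other way at 0.23.

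TCDD acts through the AHR, which with ARNT binds DNA at the core letters GCGTG, so the start regions of the receptor genes were searched for these letters on both strands. The windows, from RefSeq on GRCm38.p6, run from 250 bases before to 50 after each start. There were 9 windows for 8 of the receptor genes, Il2rg among them. Il2rb had no window and was not searched. The letters were in 3 of the 9, those of Il4ra, Il6ra and Il2rg, and in 32.4% of the 32851 windows of all genes. The STAT palindrome TTCNNNGAA, which reads the same on both strands, was in 1 of the 9, that of Il7r, and in 8.30% of all windows. The matches of the measured genes are shown as 30-base stretches on the gene's own strand, with the match in capitals. Positions count from the start, with the first base matched given for each. The Il4ra stretches lie on the plus strand at chr7:125552106-125552135 (match at −153) and chr7:125552291-125552320 (match at 38). The Il6ra stretch lies on the minus strand at chr3:89913164-89913193 (match at 16, with the core on the opposite strand to the gene). The Il7r stretch lies on the minus strand at chr15:9529999-9530028 (match at −142).
Il4ra, before the start: acagctgcggacGCGTGgggtggggcatgc
Il4ra, after the start: ggaaagccccgcgcggcGCGTGgagcctga
Il6ra: accgatctgagcCACGCcggggcgagcgct
Il7r: gttcaggagcTTCAGGGAAtaccaagatgc
Beside these stretches stand the differences of 0.155 for Il4ra, −0.225 for Il6ra and 0.09 for Il7r, all with limits that include 0. Il2ra, with the largest positive difference, had neither motif in its window. A match is a description of letters and not of binding.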

How the data were processed

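The deposited table holds 1 log2 value per probe set and array, from 4 Affymetrix arrays of amplified RNA. The authors used RMA to make these log2 values, per the submitters' processing notes, which give no version. That the scale is log2 follows from the range of 3.09 to 14.62. Of 22690 probe sets, 64 Affymetrix controls were left out. Gene names are those of the platform annotation, updated by Entrez identifier from a RefSeq table of GRCm38.p6; 20380 probe sets had 1 symbol, 691 several and 1555 none here. Differences are TCDD minus DMSO, tested in R 4.3.3 by limma 3.58.1 (eBayes after lmFit on treatment alone, without filtering). P-values were adjusted by Benjamini-Hochberg over 22626 probe sets, with 0.05 as threshold, and intervals are 95% limits of that fit. The number comparison used a fit with treatment and number. Alternatives were median centring, further quantile normalisation, a filter at the median level, a variance trend with robust fitting, a replicate block, averaging all probe sets of a gene, removal of probe sets whose identifiers carry a suffix before _at, some of which mark possible cross hybridisation, and each array left out. Receptor genes and lists were chosen with earlier results of these data known. Named from each list around the receptors were the members above the median level with the largest absolute differences, 2 per list, and from each marker list the gene with the largest range over the arrays. Some named genes fall outside this rule and were chosen after their values were seen. These are Foxp3, Ikzf2, Cd79a, Cd79b, Ms4a1, Pax5, H2-Aa, H2-Eb1, S100a9, Cd8b1, Cd3d, Cd3e, Cd5, Ccr7, Lef1 and Satb1. Also among them are Foxp1, Myc and the other genes named because their groups did not overlap.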

Additional observations from a re-analysis of the deposited data

How the results depend on the processing

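The count of receptor genes passing for TCDD minus DMSO was 0 under all 11 alternatives run, each array left out included, and the count over all probe sets was 0 under the 9 of these for which it was computed. The lowest unadjusted limma p of a receptor gene in any of them was 0.03102, for Il2ra with a variance trend and robust fitting. Il2ra was also under 0.05 with median centring (0.0413), further quantile normalisation (0.04789) and without suffixed probe sets (0.04795). In the main fit its p was 0.0515. The count of 0 receptor genes at an unadjusted p under 0.05 thus depends on the fit. Il4ra gave no value without probe sets that carry a suffix, since all of its own do. With the title number as a replicate block 0 receptor genes passed (limma, lowest adjusted p over all probe sets 0.9942). Of the listed genes, Tiparp, Pim1, Socs3, Stat5a and H2-Aa were above 0.05 without the block. With it their unadjusted limma p-values were 0.0375, 0.0081, 0.0177, 0.038 and 0.0342. The share of all probe sets under 0.05 in that fit was not computed, so nothing particular to these genes can be read from them. The within-treatment deviations of arrays sharing a number correlated at r = 0.2338 over probe sets. The labels do not say that the number marks a pair. Il7r turned to −0.1875 for the mean of its probe sets, where its second probe set enters. As arrays were left out, the sign of 5 genes turned. Il7r ran from −0.10 to 0.28, Il15ra from −0.015 to 0.045, Il21r from −0.05 to 0.26, Il6ra from −0.705 to 0.255 and Il6st from −0.44 to 0.08. Without DMSO replicate 2, Il6ra was at 0.255. Il2ra (0.235 to 0.305), Il2rb (−0.25 to −0.09) and Il4ra (0.06 to 0.25) kept their sign, which separate groups fix for Il2ra and Il2rb. The number comparison called 0 receptor genes under its 3 alternatives, and in it Il2rb turned to −0.01 and Il15ra to −0.035 with median centring, which takes away the 0.04 by which the medians of the arrays numbered 2 were higher. Il15ra turned to −0.029 with further quantile normalisation; the cause was not tested. Il2ra lies below the median level, where RMA values do not separate weak expression from none.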
